A study of Mus musculus with 6 samples.

Results

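Runx2-bound windows away from transcript starts that appeared in the normal-culture peak list and in no overlapping window of the IL-1β list are described here. Of the 1000 windows of 100 bp in the normal-culture list, 355 met both conditions, out of 2000 windows in the lists of the series. These windows were selected on the called peaks themselves: no overlap of 1 bp or more with any of the 1000 IL-1β windows, and a centre over 500 bp from each of the 1351 transcript starts that the deposited lists name. In all, 449 windows of the normal-culture list (44.9%) overlapped no IL-1β window, and 94 of these lay within 500 bp of a listed start. Among the 797 distal windows of that list, the 355 normal-only windows made up 44.5%, and the other 442 were shared with the IL-1β list. Since overlap chose the windows, neither share is a result, and since each list ends at 1000 windows, a window missing from the IL-1β list may still have been bound there.

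The windows come from chromatin immunoprecipitation with sequencing (ChIP-seq) of primary chondrocytes of 5-day-old C57BL/6 mice, in which the Runx2 protein carries a Biotin-FLAG tag and is pulled down, with the DNA it occupies, by an anti-FLAG antibody. The cells were grown in normal culture or with the inflammatory cytokine interleukin-1β (IL-1β, 1 ng per µL on the labels, per mL in the study's methods), and each condition gave 1 anti-FLAG, 1 IgG and 1 input library. All cells of both conditions carried the tag and were in culture. With 1 anti-FLAG library per condition no difference between conditions has a replicate check, the intervals below are 95% intervals for counting windows only, and the read depth behind a window is unknown. The lists hold positions and no expression, so the identity of the cells could not be checked by marker levels.

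Runx2 is a DNA-binding protein of the runt family that drives chondrocyte hypertrophy and bone formation. It binds short sites through its runt domain together with its partner Cbfb, and it can activate genes or, with corepressors of the Groucho/TLE family, repress them. Many of its sites in skeletal cells lie far from promoters, in introns and between genes, where enhancers are found, and the nearest gene to such a site need not be its target.

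The sequences of 12 of the windows are shown because they carry the motif content and the gene neighbourhoods on which the results below turn. Capitals mark each match to the Runx motif, TGTGGT or TGCGGT, which reads ACCACA or ACCGCA where it lies on the other strand. Letters are the plus strand of mm9, 5′ to 3′, read as the 100 bases after the first coordinate, with coordinates as deposited. The first 4 are the highest-ranked windows that hold the motif, the fifth is the Prelp window at rank 53, which holds none, and the others lie near genes of cartilage matrix, glycosaminoglycan synthesis and growth plate signalling or hold the most motifs.
Ttll11 intron 4, rank 27, chr2:35754402-35754502: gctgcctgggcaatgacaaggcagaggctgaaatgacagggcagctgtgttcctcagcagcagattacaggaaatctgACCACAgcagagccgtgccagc
Nenf, rank 69, chr1:193116359-193116459: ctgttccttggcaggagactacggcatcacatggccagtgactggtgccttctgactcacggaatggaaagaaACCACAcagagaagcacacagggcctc
Rasgrp1, rank 82, chr2:117287401-117287501: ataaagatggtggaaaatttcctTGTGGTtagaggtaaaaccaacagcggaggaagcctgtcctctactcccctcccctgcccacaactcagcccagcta
Cdk5rap2 intron 14, rank 90, chr4:69968388-69968488: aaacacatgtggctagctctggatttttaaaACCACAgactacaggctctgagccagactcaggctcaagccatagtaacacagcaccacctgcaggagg
Prelp, rank 53, chr1:135838668-135838768: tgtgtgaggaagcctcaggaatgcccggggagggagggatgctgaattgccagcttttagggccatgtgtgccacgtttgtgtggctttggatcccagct
Gli2 intron 2, rank 168, chr1:120890474-120890574: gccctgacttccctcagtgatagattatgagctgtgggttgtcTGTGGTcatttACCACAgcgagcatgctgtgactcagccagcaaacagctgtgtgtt
Tle1, rank 275, chr4:71630588-71630688: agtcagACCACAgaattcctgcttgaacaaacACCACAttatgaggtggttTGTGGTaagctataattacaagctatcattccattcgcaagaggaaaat
Hs6st1, rank 435, chr1:36087360-36087460: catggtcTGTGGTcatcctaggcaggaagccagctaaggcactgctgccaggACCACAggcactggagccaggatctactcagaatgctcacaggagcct
Col9a1 intron 31, rank 835, chr1:24238336-24238436: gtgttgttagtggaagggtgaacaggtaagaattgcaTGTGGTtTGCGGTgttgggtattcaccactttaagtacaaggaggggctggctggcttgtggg
Col9a2 intron 2, rank 943, chr4:120713734-120713834: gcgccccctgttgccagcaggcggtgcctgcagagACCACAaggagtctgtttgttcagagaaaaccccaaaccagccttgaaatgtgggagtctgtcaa
Bmp2, rank 941, chr2:133492178-133492278: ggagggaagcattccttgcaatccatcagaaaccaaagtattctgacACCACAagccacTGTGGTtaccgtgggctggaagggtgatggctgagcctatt
Prss29, rank 299, chr17:25453624-25453724: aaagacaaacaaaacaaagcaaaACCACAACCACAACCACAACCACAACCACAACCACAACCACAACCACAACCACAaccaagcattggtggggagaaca

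The Prss29 window held 9 motif copies back to back, the most of any of the 355. The median genome count of its 32-base words was 1, but words inside this tandem repeat recur within the window itself. The Gli2 and Bmp2 windows each held a pair of motifs on opposite strands within a few bases of one another.

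Most of these windows stood in the lower part of their list. Taking the numbering as the authors' order of peaks, the normal-only windows had a median rank of 674 (quartiles 453 and 855, from 27 to 1000), while the shared distal windows had a median of 358.5 (177.8 and 620.8). The first 100 ranks held 6 normal-only against 61 shared distal windows, and the last 100 held 66 against 18. Ranks 1 to 500 held 111 of the 355 and the ranks after 500 the other 244. Rank and overlap come from the same peak calls and both lists end at 1000, so this order describes the selection. Comparisons between sets are over all ranks unless ranks are given.

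**Figure D1:**
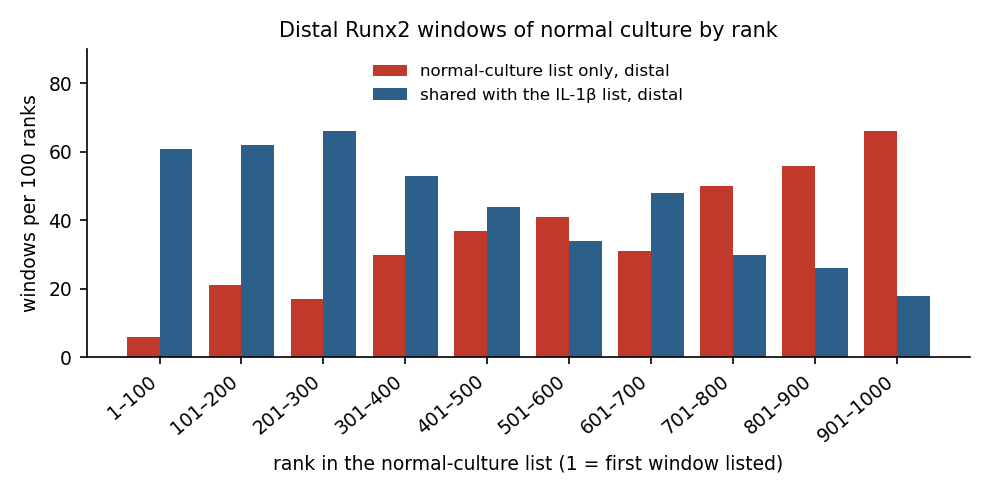
Number of distal Runx2 windows (vertical axis) in each 100 ranks of the normal-culture list (horizontal axis, 1 is the first window listed), with windows found in that list only in red and windows shared with the IL-1β list in blue. Normal-only windows numbered 6 in the first 100 ranks and 66 in the last 100, while shared windows numbered 61 and 18.

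The highest-ranked of them, at rank 27, was given to Ndufa8, a respiratory complex I gene, in the list, but lay in intron 4 of the tubulin-modifying enzyme gene Ttll11, 420 kb from the nearest IL-1β window. Rank 53 was 20.7 kb upstream of Prelp, a gene for a small leucine-rich repeat proteoglycan of cartilage, and 151 kb from the nearest IL-1β window. Rank 69 lay 25.7 kb downstream of the start of Nenf, which encodes a secreted neurotrophic factor, and rank 82 lay 119 kb upstream of Rasgrp1, a Ras activator gene. Rank 90 was in intron 14 of Cdk5rap2, a centrosome gene. The 12 highest ranks were completed by Zfp281 (96), Mrps18a (115), Stk4 (116), Rab11fip4 (117), Hs3st3a1 (127), Fgf1 (128) and Myl6b (134). Of these 12, the windows at Zfp281, Mrps18a, Stk4, Hs3st3a1 and Myl6b had an IL-1β window within 1 kb. At the foot of the list stood Ddit3 (998, 0.068 kb upstream of its start, listed under Mars), Gprin3 (999) and Rimklb (1000, listed under Mfap5).

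A part of the windows narrowly missed an IL-1β window. The centre of an IL-1β window lay within 1 kb of 36 of the 355 windows (10.1%, 7.42 to 13.7%), and for 32 of them within 200 bp, with a median of 141 bp between centres (104 to 892 bp). Such neighbours were more common at high ranks, with 15 of 44 windows ranked 1 to 300 (34.1%) and 21 of 311 ranked after 300 (6.75%). Rank and distance come from the same peak calls that chose the windows, so this order describes the selection. In 13 of the 36 pairs the IL-1β window stood higher in its list than the normal-culture window did in its own. At Stk4, which encodes the Hippo pathway kinase MST1, the window at rank 116 and the IL-1β window at rank 41 were centred 105 bp apart in intron 10. At Hs3st3a1, a heparan sulfate sulfotransferase gene, ranks 127 and 226 were 113 bp apart. At Tle1, a Groucho-family corepressor gene, ranks 275 and 556 were 166 bp apart, and at Bmp6, a bone morphogenetic protein gene, ranks 942 and 470 were 116 bp apart. Whether such a pair is 1 bound site or a pair of sites cannot be told from the lists.

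The pairs differed in where the motif lay. Among the 36, the Runx motif was in the normal-culture window only in 17, in the IL-1β window only in 5, in both in 6, between them only in 3, and in neither nor between them in 5. The spans of the Stk4 and Hs3st3a1 pairs are shown because in both the IL-1β window, which comes first in the span, held no motif and the normal-culture window held 1 and 2. In the Stk4 span the normal-culture window covers bases 106 to 205, and in the Hs3st3a1 span bases 114 to 213.
Stk4 pair, chr2:163976004-163976209: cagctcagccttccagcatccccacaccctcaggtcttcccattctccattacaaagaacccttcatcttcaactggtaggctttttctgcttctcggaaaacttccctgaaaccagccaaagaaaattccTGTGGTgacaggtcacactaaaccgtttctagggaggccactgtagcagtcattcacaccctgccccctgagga
Hs3st3a1 pair, chr11:64525336-64525549: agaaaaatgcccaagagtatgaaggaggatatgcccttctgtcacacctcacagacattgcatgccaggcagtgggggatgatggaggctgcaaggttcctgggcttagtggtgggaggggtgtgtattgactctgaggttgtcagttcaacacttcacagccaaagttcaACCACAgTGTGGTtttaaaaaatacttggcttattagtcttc

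At Ddr2, a collagen receptor gene, the reverse was seen, with no motif in the normal-culture window at rank 526 and 2 in the IL-1β window at rank 890, centred 148 bp away. At Zfp281 and Myl6b neither window nor the span between held one.

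The remaining 319 windows had a median of 510 kb to the nearest IL-1β window. Over all 355, 87 (24.5%) had an IL-1β window within 100 kb and 105 (29.6%) had none within 1000 kb. Of the 355, 9 lay within 10 kb of a shared window of the normal-culture list and 35 within 100 kb. These counts have no share for randomly placed windows beside them, so they are not read as near or far. The windows just inside the overlap limit, at Polr1a, Mrps18a and Stk4, were centred 104, 105 and 105 bp from an IL-1β window, and those just outside it, at Cdh11, Creb5 and Camk2g, overlapped one by 2, 6 and 7 bp.

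**Figure D2:**
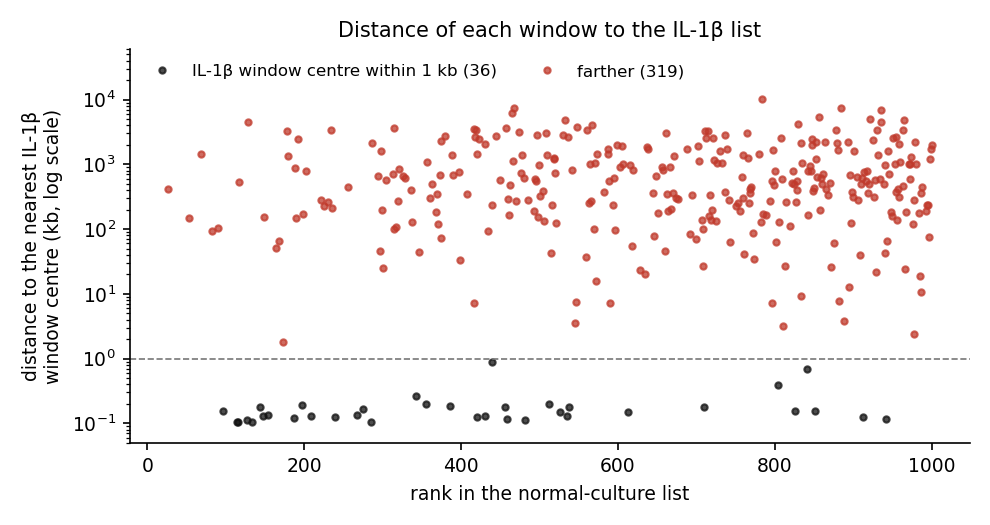
Distance from the centre of each of the 355 windows to the nearest IL-1β window centre (vertical axis, kb, log scale) against its rank in the normal-culture list (horizontal axis), with the 36 windows within 1 kb in black and the other 319 in red. The dashed line is 1 kb. The black points lie between 0.104 and 0.892 kb, and 15 of the 36 are at ranks 1 to 300.

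The Runx motif was present in most of the windows and centred in them. It was found in 222 of 355 windows (62.5%, 57.4 to 67.4%), against 57 of 710 flanking windows 1 kb to each side (8.03%), a difference of 54.5 percentage points (48.9 to 59.7). In 100 bp tiles of the mm9 genome it occurred in 7.54%. Of 281 motifs in the windows, 190 (67.6%) had their centre within 25 bp of the window centre. Only motifs inside the 100 bp were counted, so part of this share follows from the width of the window. By position, 37.7% and 35.2% of windows held a motif in the 50 bp on each side of the centre, 12.4% and 13.8% in the next 50 bp, and between 3.66% and 6.76% in each bin farther out to 500 bp. A match is a stretch of letters and does not show a bound site.

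**Figure D3:**
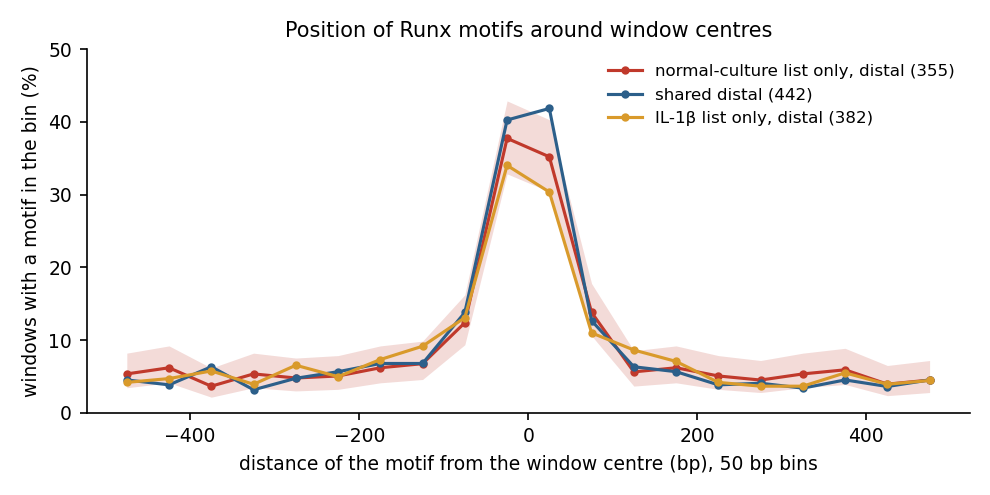
Share of windows with a Runx motif (vertical axis, %) in 50 bp bins around the window centre (horizontal axis, bp), for the 355 normal-only distal windows in red with their 95% Wilson interval as the band, shared distal windows in blue and IL-1β-only distal windows in yellow. In the normal-only windows the share reached 37.7% and 35.2% in the central bins and stayed at or below 6.76% beyond 100 bp.

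The form of the motif was TGTGGT in 227 of the 281 matches (80.8%) and TGCGGT in 54. The base after it was T in 139 (49.5%), C in 72 (25.6%), G in 46 and A in 24, and matches fell on the plus strand in 141 and the minus strand in 140. Motif number varied widely among the windows, with none in 133, 1 in 176, 2 in 39, 3 in 6 and 9 in the Prss29 window. The windows with 3 included those at Tle1 and at Rimklb, the last in the list. The 5 highest-ranked without a motif were at Prelp, Zfp281, Fgf1, Myl6b and 4931408A02Rik (154).

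Compared with shared distal windows, the motif was less frequent. It was in 222 of 355 normal-only windows (62.5%) and in 315 of 442 shared distal windows (71.3%), a difference of −8.73 points (−15.3 to −2.17), and 2 or more motifs were in 46 (13.0%) against 90 (20.4%), a difference of −7.40 points (−12.5 to −2.17). After rank 500 the shares were 59.0% in normal-only windows and 69.2% in shared windows (−10.2 points, −19.4 to −0.516). At ranks 1 to 500 they were 70.3% and 72.4% (−2.11 points, −12.4 to 7.34). With distal taken from the GENCODE M1 gene annotation they were 68.0% and 72.1%, and the interval of the difference (−4.08 points, −10.9 to 2.65) included 0. Within the normal-only windows themselves, ranks 1 to 500 exceeded the ranks after 500 by 11.3 points (0.392 to 21.2), but over 500 bp from GENCODE M1 starts by 7.23 points, with an interval that included 0 (−4.22 to 17.6).

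Against distal windows of the IL-1β list only, no difference in the motif was resolved. The share was 62.5% in the normal-only windows and 217 of 382 (56.8%) in the IL-1β-only windows, a difference of 5.73 points (−1.36 to 12.7), and after rank 500 it was 4.31 points (−4.21 to 12.7). Away from GENCODE M1 starts the normal-only windows were higher, with 68.0% against 58.2% (9.78 points, 2.37 to 17.0). Multi-copy sequence, in which reads can be placed at several loci, made up 6 of the 355 (1.69%) and 19 of the 382 (4.97%), a difference of −3.28 points (−6.10 to −0.654) that included 0 after rank 500 (−2.03 points, −4.96 to 0.753) and over 500 bp from GENCODE M1 starts (−2.46 points, −5.33 to 0.396), and without such windows the interval of the motif difference (4.90 points) still included 0.

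**Figure D4:**
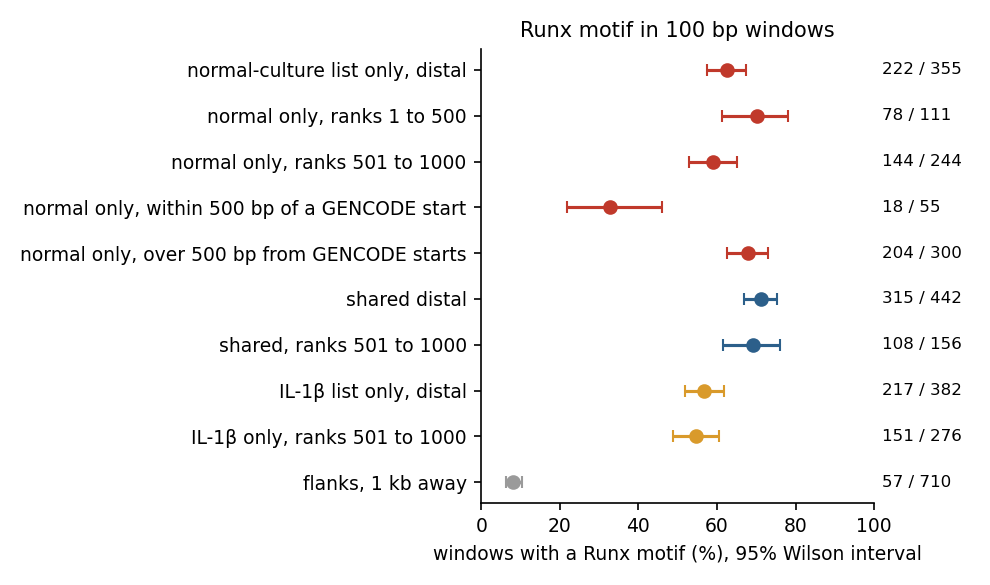
Share of 100 bp windows that hold a Runx motif (horizontal axis, %, points with 95% Wilson intervals as bars, counts at the right) in normal-only distal windows (red, also by rank and by distance to a GENCODE M1 start), shared distal windows (blue), IL-1β-only distal windows (yellow) and flanks of the normal-only windows (grey). The lowest red point is the 55 windows within 500 bp of a GENCODE M1 start, at 32.7%.

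Some of the windows chosen as distal lay at promoters by another annotation. By GENCODE M1, a gene annotation of the same genome build, 55 of 355 (15.5%) had their centre within 500 bp of a protein-coding transcript start, among them starts of Faf2, Get4 and Gtdc1 at 2, 2 and 4 bp. For 43 of these 55 the list had named a different gene from the one at that start, as with Cltb in place of Faf2 at rank 338 and Mansc1 in place of Lrp6, a Wnt co-receptor gene, at rank 822. The windows at starts had the make-up of CpG-rich promoters, with a median GC content of 66% and 8.73 CpG per window on average, against 50% and 2.14 in the other 300. They held the Runx motif in 18 of 55 (32.7%) against 204 of 300 (68.0%), a difference of −35.3 points (−47.3 to −21.0).

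The same was true of 24 of 442 shared distal windows (5.43%), which is 10.1 points below the normal-only share (5.84 to 14.6), and of 23 of 382 IL-1β-only windows (6.02%). This difference is not independent of how the windows were chosen, because a shared site brought the transcripts of both lists into the pool of starts and a normal-only site brought 1. With the starts of the normal-culture list alone, 65 of 365 unshared (17.8%) and 63 of 482 shared (13.1%) distal windows lay at a GENCODE M1 start, and the interval of that difference included 0 (4.74 points, −0.136 to 9.79). The windows just inside the 500 bp limit were at Sertad1, Ppm1a and Slc35f5 (505, 516 and 542 bp) and those just outside it were 485, 472 and 436 bp from a start.

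Most of the windows lay between genes or in introns. By GENCODE M1, 205 of 355 (57.7%, 52.6 to 62.8%) were between genes, 127 (35.8%, 31.0 to 40.9%) in introns, 16 (4.51%) in untranslated regions and 5 (1.41%) in coding exons. Shared distal windows were between genes in 55.7% and in introns in 41.2%, and over all ranks neither share was resolved from that of the normal-only windows. At ranks 1 to 500 the normal-only windows were less often in introns (32 of 111 against 120 of 286 shared windows, −13.1 points, −22.7 to −2.52) and more often between genes (66.7% against 54.2%, 12.5 points, 1.66 to 22.4). After rank 500 neither difference excluded 0 (−0.809 points, −10.6 to 8.83, and −4.64 points, −14.4 to 5.32). The intron share was 8.20 points below that of IL-1β-only windows over all ranks (−15.2 to −1.13) and 15.5 points below at ranks 1 to 500 (−27.7 to −2.70), but the interval included 0 after rank 500 (−4.91 points, −13.3 to 3.57) and over 500 bp from GENCODE M1 starts (−6.51 points, −13.9 to 1.05). The share in untranslated regions was 2.92 points above that of shared windows over all ranks (0.545 to 5.73), which included 0 after rank 500 (3.40 points, −0.789 to 7.20) and over 500 bp from GENCODE M1 starts (0.0941 points, −1.04 to 1.64). Of the 16 windows in untranslated regions, 15 were among the 55 at GENCODE M1 starts. The median distance to a start was 19.8 kb (quartiles 2.61 and 62.0 kb). The farthest lay 1165 kb from any start, beyond Diap3 (rank 467), followed by windows near Dhx35 (936) at 730 kb and Gm9726 (798) at 484 kb.

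Other motifs were searched in the same way. Of 17 motifs, the Runx motif included, 10 were more frequent in the windows than in their flanks and 1 was less frequent, by intervals that excluded 0. In the 300 windows over 500 bp from GENCODE M1 starts 8 were more frequent, and the ETS and NF-κB motifs were not resolved from flanks there. The AP-1 motif (TGANTCA), bound by Fos and Jun, was in 7.61% of windows against 1.97% of flanks. The TEAD motif (ACATTCC), bound by effectors of the Hippo pathway, was in 6.20% against 1.97%, and the GC box (GGGCGG) in 8.73% against 1.69%. The E-box (CAGCTG) was in 9.58% against 5.07%, the NFAT motif (GGAAAA) in 13.2% against 9.01% and the ETS motif (CCGGAA) in 4.79% against 1.69%, but in 6 of 300 windows against 8 of 600 flanks over 500 bp from GENCODE M1 starts (0.667 points, an interval that included 0). The NF-κB motif was in 3.10% against 0.986%, but in 5 of 300 windows against 6 of 600 flanks over 500 bp from GENCODE M1 starts (0.667 points, −0.838 to 2.91), and the NFI and CTCF motifs were in 1.41% each and in none of 710 flanks, which allows up to 0.538%. The other motifs, for C/EBP (TTGCNNAA), FOX (TATTTAC or TGTTTAC), homeobox (TAATTA), STAT (TTCCNGGAA) and GLI (TGGGTGGTC) factors and a run of 8 A, were not resolved from the flanks.

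The motif of SOX factors (ACAAAG or ACAATG), the family of the chondrocyte regulator Sox9, went the other way. It was in 17 of 355 windows (4.79%), against 95 of 710 flanks (13.4%), a difference of −8.59 points (−11.8 to −5.00), and 15.1% of genome tiles held it. Shared distal windows held it in 48 of 442 (10.9%), which put the normal-only windows 6.07 points lower (−9.77 to −2.31). After rank 500 that difference was −6.16 points (−12.2 to −1.10), at ranks 1 to 500 it was −4.88 points with an interval that included 0 (−10.2 to 2.02), and away from GENCODE M1 starts it was −6.22 points (−10.1 to −2.13). Shared windows did not differ from their own flanks by an interval that excluded 0 (−0.792 points, −4.23 to 2.99), and IL-1β-only windows held the motif in 8.38%, from which the normal-only windows were not resolved (−3.59 points, −7.26 to 0.0459). ACAAAG alone was in 3.66% of normal-only and 7.24% of shared windows, and ACAATG alone in 1.13% and 4.30%. The median GC content was 51% in normal-only and 51% in shared windows but 46% in the flanks of either, and the part of base composition in the comparison with flanks was not tested.

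**Figure D5:**
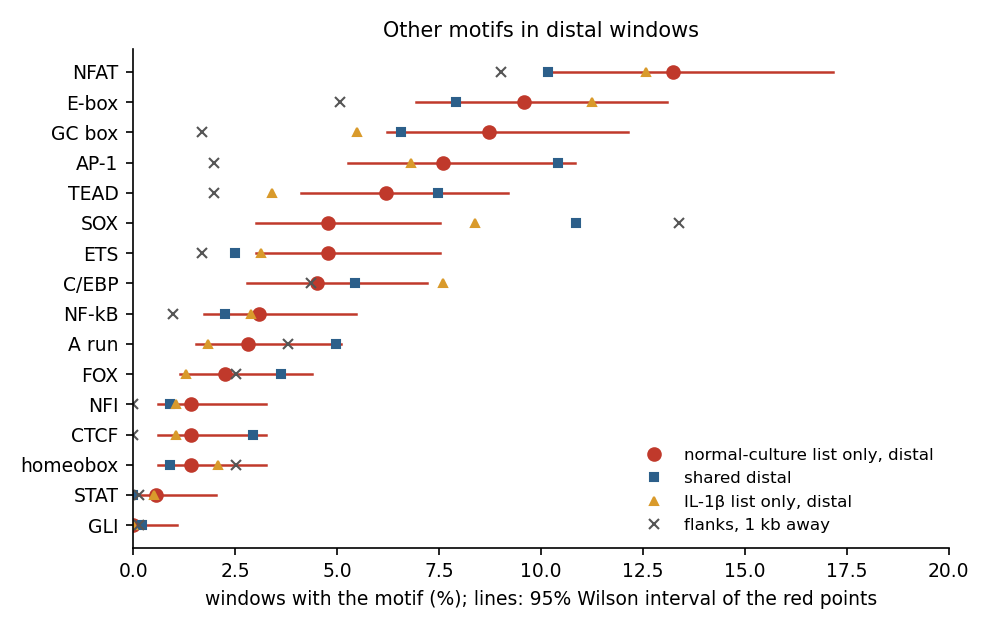
Share of windows (horizontal axis, %) that hold each of 16 motifs other than the Runx motif (vertical axis), in normal-only distal windows (red circles, lines are 95% Wilson intervals), shared distal windows (blue squares), IL-1β-only distal windows (yellow triangles) and flanks of the normal-only windows (crosses). SOX is the motif whose red point, at 4.79%, is far left of the flanks at 13.4% and of the shared windows at 10.9%. The normal-only windows were not resolved from the IL-1β-only windows, which held SOX in 8.38%.

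Besides SOX and Runx, no motif differed between normal-only and shared distal windows by an interval that excluded 0, and against IL-1β-only windows none of the 17 did over all distal windows. AP-1 was in 7.61% of normal-only and 10.4% of shared windows (−2.80 points, −6.75 to 1.29). TEAD was in 6.20% of normal-only and 3.40% of IL-1β-only windows (2.79 points, −0.323 to 6.11). Over 500 bp from GENCODE M1 starts the TEAD difference excluded 0, with 7.33% against 3.62% (3.71 points, 0.236 to 7.54), as did that of the Runx motif given above. These are differences over 17 motifs with no correction for their number, and a window may hold several motifs.

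Genes near the windows were taken both from the lists and from GENCODE M1, which named a different gene for 120 of the 355. By either source, 57 windows (16.1%) had a gene from one of 19 gene lists as the nearest. This share has no count over all 1000 windows beside it, so it is not read as high or low. Nearness to a gene does not show regulation. The counts below are read beside the windows of each gene list in all 1000 of the normal-culture list. The normal-only windows are themselves 355 of those 1000, and no set test was made. Each count is therefore a description and not a result about the genes of a list.

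Cartilage matrix genes were nearest to 7 of the 355 windows, of 12 in all 1000, by the genes of the list. Type IX collagen, which coats type II collagen fibrils, had 3 of them. Of these, 1 lay 7.93 kb upstream of Col9a1 (rank 615), 1 in Col9a1 intron 31 (rank 835, 61.9 kb from the first) and 1 in Col9a2 intron 2 (rank 943). The Col9a1 windows held 0 and 2 motifs and the Col9a2 window 1, and the nearest IL-1β windows were 979, 1041 and 65.6 kb away. Comp, a pentameric matrix glycoprotein gene mutated in pseudoachondroplasia, had a window 1.48 kb upstream of its start (rank 859, no motif), and Thbs1 (thrombospondin 1) one 152 kb upstream (rank 750). The Prelp window was the highest-ranked, and the window given to Cilp (932) was 0.161 kb from the start of Clpx. That none of the 7 overlaps an IL-1β window follows from how the windows were chosen.

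Genes of glycosaminoglycan synthesis had 5 windows of 12, and collagen fibril genes 5 of 8. The first were Hs3st3a1 (127), the 6-O-sulfotransferase gene Hs6st1 (435, 37.8 kb upstream), Ndst1 (694, nearest to Synpo by GENCODE M1), the hyaluronan synthase gene Has2 (914, 147 kb upstream) and Xylt1 (987, intron 1), whose enzyme starts glycosaminoglycan chains. Hs3st3a1, Hs6st1, Ndst1 and Has2 windows each held 2 motifs, and the Xylt1 window, 10.7 kb from an IL-1β window, held none. The collagen windows were at Ddr2 (526), Col5a1 intron 4 (651), the tendon factor gene Scx (806, in a Bop1 intron), a coding exon of Col12a1 (948) and the collagen chaperone gene Serpinh1 (416). The Serpinh1 window was multi-copy sequence, with a median of 786087 genome copies of its 32-base words, and so was the Klf2 window (712).

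Hedgehog and fibroblast growth factor genes, which set the pace of growth plate chondrocytes, were nearest to 7 windows of 11. For Hedgehog they were the effectors Gli2 (168, intron 2) and Gli3 (951, 21.0 kb upstream) and the receptor Ptch1 (707, intron 1, 5.07 kb from the gene start). For fibroblast growth factors they were the ligands Fgf1 (128, intron 3), Fgf18 (315) and Fgf9 (920) and the inhibitor Spry2 (853, nearest to Gm10076 by GENCODE M1). Gli2 held 2 motifs, Gli3, Fgf18 and Fgf9 held 1 each, and Fgf1, Ptch1 and Spry2 held none. Wnt genes were nearest to 3 windows, of 3 in all 1000, and to 5 of 6 by GENCODE M1. Those by GENCODE M1 were the nuclear effector Lef1 (588, 159 kb upstream, and 881, intron 3), the ligand gene Wnt3a (783, listed under Wnt9a, 2 motifs), the co-receptor Lrp6 (822) and Wisp2 (408, 2 motifs), a CCN family gene.

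Bone and transcription factor genes followed. Bmp7 (797, intron 2) and Bmp2 (941, 114 kb downstream of its start, 2 motifs) were named by both sources, and Bmp6 (942) by GENCODE M1 only. Hypertrophy and bone genes had 2 windows of 13 by the list. Chondrocyte transcription factor genes had 6 of 17, with the corepressors Tle1 (275) and Tle3 (189 and 320, nearest to Gm10655 by GENCODE M1), Gli2, Gli3 and Klf2. Trps1 (849, 431 kb upstream, listed under Eif3h), a repressor gene of the growth plate, was named by GENCODE M1.

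Smaller groups had few windows. Insulin and IGF genes had 3 of 8, with Irs1, the insulin receptor substrate, at ranks 149 and 720 and the IGF-binding-protein protease gene Pappa (390, intron 19). The Irs1 windows lay 282 and 324 kb from the gene start, 41.7 kb apart, with 1 motif each. Cell cycle genes had 4 of 9, namely Cdk5rap2 (90), Ccnd1 (cyclin D1, 317, 106 kb upstream), Rbl1 (379) and Chek2 (756). Cytoskeleton and adhesion genes had 4 of 12, among them the collagen-binding integrin gene Itga11 (563, intron 2), Actn1 (594) and Itga9 (995). Genes that respond to IL-1 or NF-κB had 2 of 7, Nfkb1 (917, intron 18, 1 motif) and Lif (955, 1 motif). The Nfkb1 window lay 0.271 kb from a GENCODE M1 start. Apoptosis and survival genes had 1 of 5, Fasl (417, 2 motifs), or 2 of 5 by GENCODE M1 with Ddit3.

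Markers of other cell types among the nearest genes were counted in the same way. None of the skeletal muscle, leukocyte or adipocyte markers and no matrix protease gene was nearest to any of the 355 windows by either source, where all 1000 windows had 0, 1, 0 and 2 by the list. Endothelial markers had 1 window, named for Nos3 (329), of 2 in all 1000 by the list. The Nos3 window lay in an Abcb8 intron, 0.402 kb from a GENCODE M1 start. Fibroblast, perichondrium and synovium markers had 1 window, named for Scx, of 3 in all 1000 by the list.

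Some genes had more than 1 of the windows. Col9a1, Irs1, Tle3, Jarid2, Mid1, Sertad1, Setd4, Tmc3, Trappc3, 2010111I01Rik and Wwp2, the host gene of the cartilage microRNA miR-140, had 2 each by the list, and Lef1, Synpo and Apbb2 were added by GENCODE M1. The Mid1 windows (493 and 664) were centred 77 bp apart and overlapped each other. Whether they are 1 bound site or a pair of sites cannot be told from the lists. The Sertad1 windows (572 and 895) were 3.17 kb apart. The Wwp2 windows (386 and 977) were 24.9 kb apart. The one at rank 386, with 2 motifs, lay 0.03 kb from a GENCODE M1 start and had an IL-1β window 0.184 kb away. By chromosome, the normal-only share of the normal-culture windows was highest on chromosome 16 (19 of 32, 59.4%) and lowest on chromosome 19 (8 of 33, 24.2%). Over all chromosomes it was 355 of 1000, counting windows near listed starts, which the rule left out of the 355. These extremes rest on few windows, and a difference between chromosomes was not tested.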

How the data were processed

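Runx2-FLAG ChIP-seq of primary chondrocytes gave 6 libraries in 6 groups of 1. Reads had been aligned with Bowtie2 2.2.2 to mm9, as the submitters' processing notes state. For each condition the authors ran CisGenome on the anti-FLAG library against its input and named the nearest RefSeq transcript. The deposited values used were a running number, a score taken as the rank of a window, and other values that are mm9 positions of windows and transcripts. The authors' peak heights and false discovery rates were not analysed here, nor were the IgG libraries. Rank as order of peaks is an assumption, and whether positions count from 0 is not stated.

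The normal-only windows, the gene lists and the motifs were chosen with earlier results of these data known. Overlaps, distances and motif matches on both strands were computed in Python 3.11.15 with numpy 2.4.6, pandas 2.3.3 and pysam 0.24.0. Transcript starts and genes were also taken from GENCODE M1, and 99.5% of 21482 internal exon starts of the lists matched it after adding 1 bp. Flanks were 100 bp windows 1000 bp to each side. Windows whose 32-base words had a median genome count above 1 were taken as multi-copy (numba 0.67.0). Intervals of shares (Wilson) and of differences (Newcombe) are at 95%, from statsmodels 0.14.6, and cover only the error of counting windows. The computations were tested on simulated data. Symbols were matched through a RefSeq table used for names only, which held 347 of 355 listed symbols, and 3 listed symbols were dates.

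Windows named were the 12 highest-ranked and 3 lowest-ranked, up to 4 per gene list, genes with 2 or more windows, up to 5 near an IL-1β window, with 2 or more motifs or with none, and those nearest to and farthest from a start or next to a limit. Others, namely further windows of a gene list, those with 3 or more motifs, Bmp6 and Ddr2 as pairs, Clpx, Abcb8 and Lrp6 by their promoters or introns, and the extreme chromosomes, were named after their values were seen. Some windows that met these rules are not reported here.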

Additional observations from a re-analysis of the deposited data

How the results depend on the processing

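The windows numbered between 300 and 420 when the overlap, the distance or the annotation was changed, but 111 with the normal-culture list ended at rank 500 and 163 with both lists ended there. The share with the Runx motif was 50.4% for TGTGGT alone, 33.8% for TGTGGTT or TGCGGTT, 74.6% in 200 bp, 41.4% in 50 bp and 68.0% over 500 bp from every GENCODE M1 start. Its excess over flanks kept its sign with an interval above 0 under all 10 alternatives. Its deficit to shared distal windows no longer excluded 0 in 50 bp (−5.65 points), over 5000 bp from every listed start (−6.79) and over 500 bp from every GENCODE M1 start (−4.08). Its difference to IL-1β-only windows excluded 0 in 50 bp (7.38 points), with 50 bp of overlap required (8.55) and by GENCODE M1 (9.78), and changed sign with the 7-base motif (−1.54). By the listed transcripts 25.6% of windows were in introns and 72.4% between genes, and after rank 500 the difference to shared windows between genes was −4.64 points in place of 2.09. The higher share at GENCODE M1 starts no longer excluded 0 with the starts of the normal-culture list alone (4.74 points). This and the alternatives for the SOX motif were chosen after the data were seen, and the SOX deficits kept an interval below 0 under all 6. Of 38 alternatives for single gene lists, 11 moved the count by over 1.5 times. The cause of these changes was not tested. No paired analysis was possible because each condition had 1 anti-FLAG library. Read depth limits every window and is unknown.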
